A study of Mus musculus with 4 samples.

Results

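Brain endothelial and mural cell genes are 35 mouse genes that mark the cells of blood vessels in the brain. They were taken by symbol from a table of read counts for 55414 genes, and all 35 were found there, 24 of them known from endothelial cells and 11 from mural cells. The 4 bulk messenger RNA libraries are labelled as brain, with 2 wild-type (WT) and 2 Stra8-KO (KO, knockout of Stra8). By the series design, mice of both genotypes carried the pStra8-GFP reporter, green fluorescent protein under the Stra8 promoter, and positive cells were sorted from hippocampi. The labels give no sex, age or number of animals behind a library, and do not say whether the libraries are of separate animals, so p-values here measure only the spread between these libraries, which may be technical.

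Endothelial cells line the vessel. In the brain they are sealed by tight junctions, let few substances pass between them, and move glucose, lipids and hormones across by transporters, which together form the blood-brain barrier. Mural cells wrap the endothelium: pericytes sit on capillaries and share a basement membrane with it, and smooth muscle cells ring arteries and arterioles and set their width. Endothelial cells recruit pericytes by secreting the growth factor PDGF-B, which acts on the receptor encoded by Pdgfrb.

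The libraries held 71097417 to 82172740 counted reads each. Stra8, the targeted gene, had 5 and 1 reads in the WT libraries and 7 and 4 in the KO libraries, so its counts are no check of the labels. Of 21592 genes tested across the table, 6.53% were called different between the genotypes, 3.35% higher and 3.19% lower in KO. A gene was called when its edgeR quasi-likelihood p, adjusted by Benjamini-Hochberg over all genes tested, was under 0.05. Every library also held markers of cells outside the hippocampus, given with the vascular genes below.

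All 35 vascular genes passed the filter on low counts, with 104 to 10974 reads per gene and library. Cldn5 and Cdh5 of endothelium and Pdgfrb and Rgs5 of mural cells were at 21.7 CPM or more in every library. CPM are reads of a gene relative to the scaled total of its library. Other markers of both classes were lower, among them Tek at 12.6 to 14.2 CPM and Higd1b at 1.29 to 1.55 CPM. In bulk RNA, fewer cells of a type and less RNA per cell cannot be told apart. Between genotypes 3 of the 35 were higher in KO (Kdr, Cldn5 and Anpep), 1 was lower (Slc2a1) and 31 were not called. The endothelial genes gave 3 of the 4 calls and the mural genes 1. The 4 called genes had log2 fold changes (KO over WT) of at most 0.35 in size, and 30 of the 35 genes lay under 0.2 in size. Without adjustment 13 of the 35 had a p under 0.05, where 17.4% of all genes tested did.

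The promoters of the 4 called genes are shown because these are the genes the genotype comparison singles out. They are RefSeq windows of build GRCm38.p6, each with 250 bases before and 50 after the annotated start, read 5′ to 3′ along the gene. The counts were made on GRCm39, so these positions belong to the RefSeq build alone. Anpep is at chr7:79848161-79848460 (minus strand), Cldn5 at chr16:18776597-18776896 (plus), Kdr at chr5:75978406-75978705 (minus) and Slc2a1 at chr4:119108495-119108794 (plus). Capitals mark the GC box GGGCGG, which appears as CCGCCC where it lies on the other strand.
Kdr: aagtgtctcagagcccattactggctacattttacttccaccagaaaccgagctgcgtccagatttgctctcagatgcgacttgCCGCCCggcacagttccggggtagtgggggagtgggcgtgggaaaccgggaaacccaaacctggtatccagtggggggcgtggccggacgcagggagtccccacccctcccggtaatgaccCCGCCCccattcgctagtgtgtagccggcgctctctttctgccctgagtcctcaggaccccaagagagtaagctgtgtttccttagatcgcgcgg
Cldn5: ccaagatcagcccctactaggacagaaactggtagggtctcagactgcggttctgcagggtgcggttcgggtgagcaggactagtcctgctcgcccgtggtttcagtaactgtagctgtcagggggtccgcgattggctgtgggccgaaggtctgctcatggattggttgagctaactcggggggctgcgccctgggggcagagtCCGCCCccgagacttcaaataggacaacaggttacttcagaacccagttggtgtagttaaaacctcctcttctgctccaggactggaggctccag
Slc2a1: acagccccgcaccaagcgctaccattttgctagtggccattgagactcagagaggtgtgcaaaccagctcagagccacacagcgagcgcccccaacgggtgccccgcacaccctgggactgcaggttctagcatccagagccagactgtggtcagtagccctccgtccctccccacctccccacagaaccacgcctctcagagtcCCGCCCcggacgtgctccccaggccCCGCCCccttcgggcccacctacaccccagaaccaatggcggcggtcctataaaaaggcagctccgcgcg
Anpep: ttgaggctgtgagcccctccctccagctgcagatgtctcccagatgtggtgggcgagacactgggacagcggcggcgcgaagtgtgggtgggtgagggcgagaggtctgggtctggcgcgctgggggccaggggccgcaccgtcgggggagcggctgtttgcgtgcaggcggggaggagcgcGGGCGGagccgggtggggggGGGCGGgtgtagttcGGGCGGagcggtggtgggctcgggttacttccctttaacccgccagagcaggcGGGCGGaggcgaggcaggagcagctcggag

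The GC box was found once in the Cldn5 window, at 2 places each in Kdr and Slc2a1 and at 4 in Anpep. It was chosen after the values were seen. On either strand 35.7% of all 32851 promoter windows held it, as did 14 of the 30 windows of the 24 vascular genes that had 1 or more. The share of G and C bases was 58.3% in Cldn5, 60.7% in Kdr, 65.3% in Slc2a1 and 72.3% in Anpep, against a median of 52.7% over all windows and 58.7% over the 30 windows of vascular genes. The CArG box, the site of serum response factor in smooth muscle genes, was also searched on both strands. The pattern used was CCWWWWWWGG, where W is A or T. This pattern was in 0 of the 30 windows of these 24 genes, among them the one of Acta2. It was in 1.63% of all windows. A site with G or C between the CC and the GG would not be found, so only this exact pattern is absent.

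Levels were compared between genes as CPM per kilobase of exon, using the union of all annotated exons, which can understate genes with long or many transcript forms. Slc2a1 was the most abundant, with 38.2 and 38.2 CPM per kb in the WT libraries and 30.8 and 29.5 in the KO libraries. The mural genes Vtn, which encodes vitronectin, and Rgs5, a regulator of G protein signalling that marks pericytes, followed with means of 27.03 and 23.8 CPM per kb. Cldn5 was next at 23.1. At the other end Emcn, the surface mucin endomucin, had 0.995 CPM per kb and Abcc9, a channel subunit of pericytes, 1.23.

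The order of these levels was only partly resolved. Of the 34 pairs of neighbours in it, 23 had overlapping ranges over the 4 libraries. The ranges of Slc2a1 and Vtn were apart, as were those of Vtn and Rgs5, whereas Rgs5 and Cldn5 overlapped. Within each library the median was higher for endothelial than for mural genes. It was 4.79, 4.72, 5.11 and 4.999 CPM per kb for endothelial genes in WT libraries 1 and 2 and KO libraries 1 and 2, and 2.67, 2.42, 2.32 and 2.502 for mural genes.

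**Figure D1:**
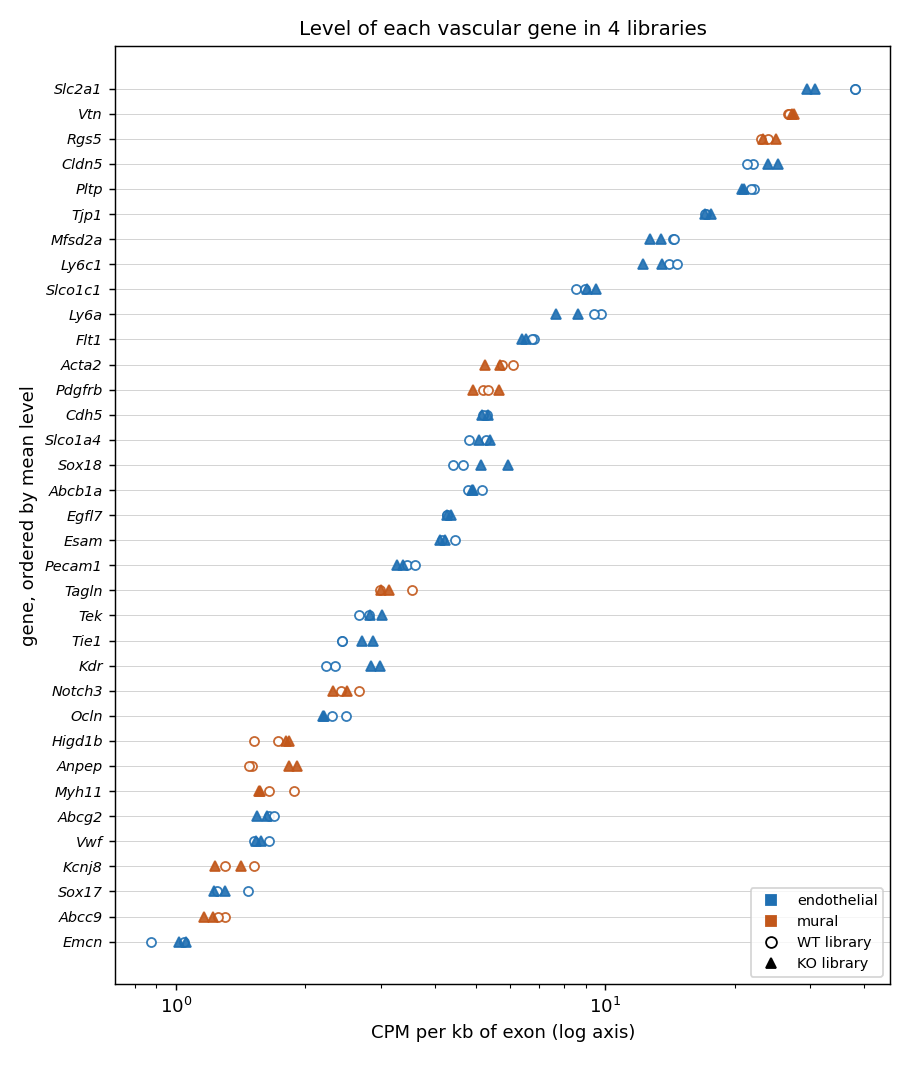
CPM per kilobase of exon (log axis) of each of the 35 genes, ordered by mean level, with open circles for WT and filled triangles for KO libraries, endothelial genes in blue and mural genes in orange. Slc2a1 is at the top and Emcn at the bottom. Mural genes reach from near the top (Vtn and Rgs5) to near the bottom (Abcc9), with most in the lower part. The libraries of 1 gene usually lie closer together than genes far apart in the order.

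Junction genes hold endothelial cells to each other. Of 6 measured, 1 rose, 0 fell and 5 were not called. Cldn5 (ENSMUSG00000041378), the main claudin of brain endothelial tight junctions, had 31.2 and 30.3 CPM in WT and 33.8 and 35.7 in KO. Both KO libraries were above both WT libraries, and the groups did not overlap. It rose from 30.8 ± 0.69 to 34.8 ± 1.33 CPM (mean ± SD, n = 2 libraries each), or 0.18 as log2 fold change (SE 0.045, edgeR adjusted p = 0.0158). The call was lost without WT library 2 (log2 fold change 0.15, edgeR adjusted p = 0.129) and without KO library 2 (0.14, edgeR adjusted p = 0.149).

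The other junction genes showed no called difference. Tjp1 encodes the scaffold protein ZO-1, which many cell types share. It had 134, 133, 133 and 137 CPM in WT 1, WT 2, KO 1 and KO 2, and its log2 fold change of 0.019 had a 95% interval from -0.028 to 0.067. Cdh5, the cadherin of endothelial adherens junctions, had 22.3 and 21.8 CPM in WT and 22.4 and 21.7 in KO, with an interval from -0.10 to 0.12. Pecam1, an adhesion protein of the cell border, had 21.4 and 22.5 CPM in WT and 21.02 and 20.4 in KO. Esam, another adhesion protein of that border, overlapped between genotypes, and Ocln, the tight junction protein occludin, did not (10.5 and 9.74 CPM in WT, 9.27 and 9.32 in KO). Their log2 fold changes were -0.084 for Pecam1, -0.050 for Esam and -0.12 for Ocln.

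Receptors for vascular growth factors gave the largest rise. Of 4 genes 1 rose, 0 fell and 3 were not called. Kdr (ENSMUSG00000062960) encodes VEGF receptor 2, the main signalling receptor for VEGF-A. It had 21.2 and 20.1 CPM in WT and 25.7 and 26.96 in KO. The gap between the genotypes was larger than the spread within either. Kdr rose from 20.7 ± 0.75 to 26.3 ± 0.86 CPM, or 0.35 as log2 fold change (SE 0.053, edgeR adjusted p = 7.11e-05), the largest rise among the 35 genes. The call held in all 13 alternative fits, where the log2 fold change lay between 0.31 and 0.39.

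Flt1, which encodes VEGF receptor 1 and a soluble form that binds VEGF-A away from Kdr, was lower in both KO libraries. It had 91.99 and 91.02 CPM in WT against 86.5 and 87.97 in KO, a log2 fold change of -0.069 that was not called (SE 0.027, edgeR adjusted p = 0.145). Whether the difference of Kdr departs from that of Flt1 was not tested. Tie1, an orphan receptor that works with the angiopoietin receptor, had 11.96 and 11.96 CPM in WT and 13.3 and 14.1 in KO. Its log2 fold change of 0.19 was not called (SE 0.069, edgeR adjusted p = 0.106). Tek, the angiopoietin receptor Tie2, had 13.3 and 12.6 CPM in WT and 14.2 and 13.3 in KO, where the lower KO library was just above the higher WT library (log2 fold change 0.095, edgeR adjusted p = 0.550).

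Transporters of the barrier gave the smallest adjusted p of the 35 genes. Of 6 genes 0 rose, 1 fell and 5 were not called. Slc2a1 (ENSMUSG00000028645) encodes GLUT1, the glucose transporter of brain endothelium, which astrocytes and choroid plexus epithelium also make. It had 134 CPM in each WT library, and 108 and 103 CPM in KO. Both KO libraries were well below the WT libraries, which were nearly equal. Slc2a1 fell from 134 ± 0.026 to 106 ± 3.09 CPM, or -0.34 as log2 fold change (95% interval -0.39 to -0.29, SE 0.025, edgeR adjusted p = 7.45e-10), and kept its call in all 13 alternative fits. This was a change of -21.02%.

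Markers of other cells that make Slc2a1 were read in the same libraries. The summed level of 10 choroid plexus markers was 647 and 644 CPM in WT and 451 and 443 CPM in the KO libraries, and 6 of the 10 fell while 0 rose. Ttr, the most abundant of them, fell from 560 to 386 CPM (log2 fold change -0.54). Of 8 astrocyte markers 3 fell, 0 rose and 5 were not called, with a median log2 fold change of -0.030. Over all genes tested 6.53% were called. The 3 that fell were Gjb6, Slc1a3 and Gfap (log2 fold changes -0.17, -0.10 and -0.067), and 7 of the 8 lay below 0. The summed levels of the 8 astrocyte markers were 4739 and 4732 CPM in WT and 4666 and 4648 CPM in KO. Most of that sum was Slc1a2, a glutamate transporter with a log2 fold change of -0.0067 that was not called. The part of these cells in the Slc2a1 result was not tested.

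The other 5 transporters were not called. Mfsd2a, which carries docosahexaenoic acid as a lysolipid and keeps transcytosis low, had 32.4 and 32.5 CPM in WT and 30.4 and 28.6 in KO. Its difference of -0.14 in log2 was not called (SE 0.046, edgeR adjusted p = 0.0813). It was called without KO library 1 (-0.18, edgeR adjusted p = 0.0397) and was smaller when KO library 2 was left out (-0.094, edgeR adjusted p = 0.460). Slco1c1, a thyroxine carrier also known from choroid plexus and astrocytes, had 44.4 and 46.4 CPM in WT and 49.4 and 47.1 in KO (log2 fold change 0.089, edgeR adjusted p = 0.208). Slco1a4, an organic anion carrier, and the efflux pump genes Abcb1a (P-glycoprotein) and Abcg2 had log2 fold changes of 0.052, -0.0196 and -0.074. Slco1a4 and Abcb1a overlapped between genotypes, and Abcg2 was lower in both KO libraries by a small margin. Abcb1b, the near copy of Abcb1a, had 2.22 to 2.89 CPM per library, against 26.2 to 28.3 CPM for Abcb1a.

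**Figure D2:**
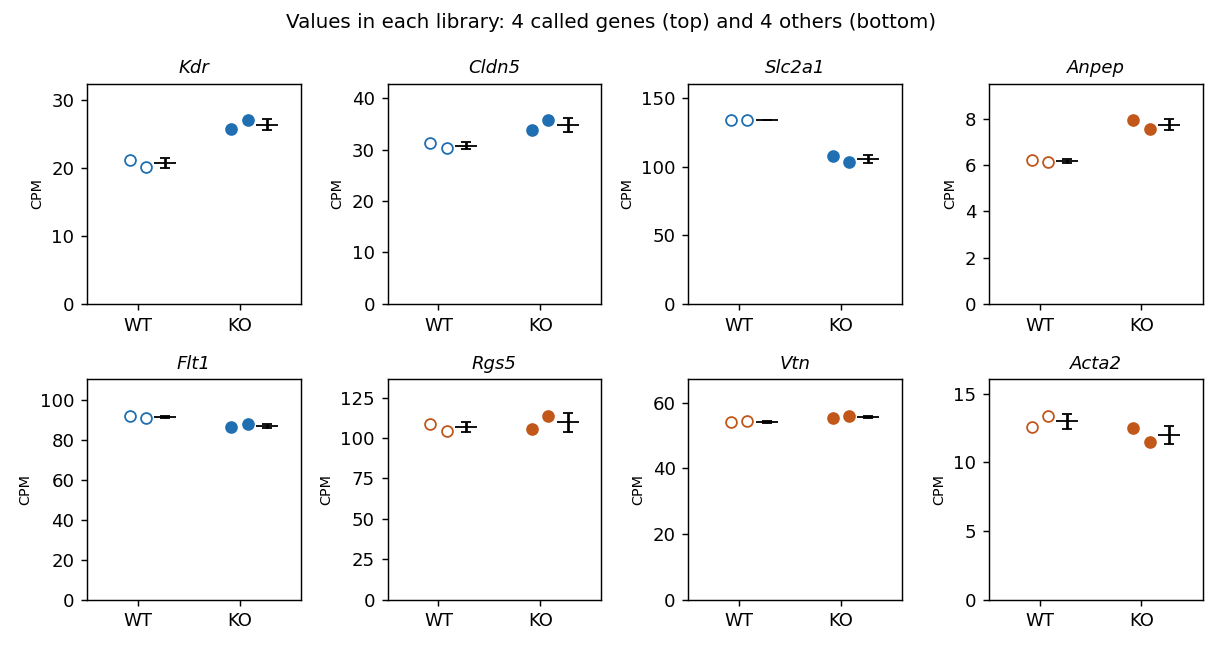
CPM in each library (open points WT, filled points KO; axes start at 0), with mean ± SD beside them, for the 4 called genes in the top row and Flt1, Rgs5, Vtn and Acta2 in the bottom row. Kdr, Cldn5 and Anpep are higher in both KO libraries and Slc2a1 is lower (108 and 103 against 134 CPM), whereas the points of the bottom row lie close together or overlap.

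The remaining 8 endothelial genes encode surface, secreted and nuclear proteins, and 0 of them were called by edgeR, DESeq2 or limma-trend. In edgeR 4 of the 8 had an unadjusted p under 0.05, where 17.4% of all genes tested did. Sox18, a transcription factor of endothelial cells, had 7.17 and 7.56 CPM in WT and 9.59 and 8.33 in KO. The KO libraries were both higher, but the log2 fold change of 0.29 was not called (SE 0.089, edgeR adjusted p = 0.0563). Its call changed with the fit: it was called in 6 of 13 alternatives, with adjusted p from 0.0082 without KO library 2 to 0.467 without KO library 1. Sox17, a related factor of arterial endothelium, went the other way, with 5.95 and 7.03 CPM in WT and 5.84 and 6.197 in KO, and overlapped between genotypes (log2 fold change -0.11, edgeR adjusted p = 0.655).

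The Ly6 surface proteins were lower in the KO libraries by amounts that were not called. Ly6a had 11.8 and 11.4 CPM in WT and 10.4 and 9.25 in KO (log2 fold change -0.23, SE 0.078, edgeR adjusted p = 0.0856). Ly6c1 had 23.6 and 24.6 CPM in WT and 22.7 and 20.5 in KO (log2 fold change -0.16, SE 0.056, edgeR adjusted p = 0.114). Neither gene overlapped between genotypes, and both were called without KO library 1, with log2 fold changes of -0.32 for Ly6a and -0.23 for Ly6c1 (edgeR adjusted p = 0.0281 and 0.0223). With KO library 2 left out instead, the values were -0.15 and -0.086 (edgeR adjusted p = 0.494 and 0.622). Ly6c2, the near copy of Ly6c1, had 0.330 to 0.533 CPM.

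The last 4 endothelial genes were not called. Pltp, the phospholipid transfer protein, had 56.9 and 55.9 CPM in WT and 53.8 and 53.3 in KO, without overlap (log2 fold change -0.074, edgeR adjusted p = 0.241). Its exons overlap those of Ctsa on the other strand, and no source used here states whether the counting used strand. Vwf, the clotting protein von Willebrand factor, had a log2 fold change of -0.022 with an interval from -0.13 to 0.086. Egfl7, a secreted regulator of vessel growth, had 15.3 CPM in 3 libraries and 15.6 in KO library 2. Emcn had the lowest level per kb and a log2 fold change of 0.11 with an interval from -0.11 to 0.33.

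Pericyte genes gave 1 call. Of 8 genes 1 rose, 0 fell and 7 were not called. Anpep (ENSMUSG00000039062), the aminopeptidase CD13 of pericytes, which fibroblasts and myeloid cells also make, had 6.22 and 6.11 CPM in WT and 7.93 and 7.57 in KO. Both KO libraries were above both WT libraries. Anpep rose from 6.17 ± 0.081 to 7.75 ± 0.26 CPM, or 0.33 as log2 fold change (SE 0.090, edgeR adjusted p = 0.0242). DESeq2 did not call it (adjusted p = 0.0861), nor did edgeR without WT library 1 (adjusted p = 0.0707), WT library 2 (0.106) or KO library 1 (0.145), where the log2 fold change was 0.34, 0.32 and 0.30.

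Markers of fibroblasts around vessels and in the meninges were read beside Anpep. Of 10 such genes 0 were called by edgeR, DESeq2 or limma-trend. In edgeR 5 of the 10 had an unadjusted p under 0.05, where 17.4% of all genes tested did. Their summed level was 140 and 136 CPM in WT and 148 and 143 CPM in KO, and their median log2 fold change was 0.072. Of 8 microglial markers 0 were called by any of these tools, with 1 at an unadjusted p under 0.05. The microglial sums were 260.02 and 260.02 CPM in WT and 267 and 262 CPM in KO. Of the 10 fibroblast markers 7 had a log2 fold change above 0 and 3 (Dcn, Igf2 and Ogn) below. The 4 with the smallest p did not share a direction. Slc47a1, a transporter of organic cations, had a log2 fold change of 0.37 (edgeR adjusted p = 0.0672), Col3a1, a fibrillar collagen, 0.25 (0.0774) and Fmod, a matrix proteoglycan, 0.15 (0.0959), against -0.34 (0.082) for Igf2, an insulin-like growth factor. Of these 4 Col3a1 varied most with the libraries, from 0.42 with WT library 1 left out (edgeR adjusted p = 0.00026) to 0.098 with WT library 2 left out (0.704). The part of these cells in the Anpep result was not tested.

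The 7 other pericyte genes included the most abundant mural transcripts. Rgs5 had 109 and 105 CPM in WT and 106 and 114 in KO, and its log2 fold change of 0.038 had an interval from -0.023 to 0.10. Vtn had 53.96 and 54.3 CPM in WT and 55.3 and 55.9 in KO, so the KO libraries were both higher, by a log2 fold change of 0.039 with an interval from -0.029 to 0.11. Pdgfrb, the receptor for PDGF-B, had 28.4 and 29.2 CPM in WT and 26.9 and 30.97 in KO. The KO libraries of Pdgfrb lay on either side of the WT libraries, with a log2 difference near 0, at 0.0053 (SE 0.055, edgeR adjusted p = 0.980).

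Channel subunits and other pericyte genes were measured with larger errors. Kcnj8 and Abcc9 encode the pore and the regulatory subunit of the ATP-sensitive potassium channel of pericytes. Kcnj8 had 3.87 and 3.30 CPM in WT and 3.62 and 3.13 in KO, and Abcc9 had 10.9 and 10.5 in WT and 9.71 and 10.2 in KO. Their log2 fold changes were -0.084 and -0.10. Notch3, the Notch receptor of mural cells, had a log2 fold change of -0.078 and overlapped between genotypes. Higd1b, a pericyte marker with 104 to 127 reads per library, had the widest interval of the 35 genes, from -0.24 to 0.56. Its log2 fold change of 0.16 was not called (SE 0.19, edgeR adjusted p = 0.760), and its size is known only within that interval.

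Smooth muscle contractile genes were lower on average in the KO libraries by amounts that were not called by edgeR, DESeq2 or limma-trend. All 3 had a log2 fold change below 0, and 1 had an unadjusted edgeR p under 0.05, where 17.4% of all genes tested did. This shared direction depended on WT library 2, without which Tagln was at 0.045, Acta2 at -0.069 and Myh11 at -0.074. Acta2, smooth muscle actin, had 12.6 and 13.4 CPM in WT and 12.5 and 11.5 in KO (log2 fold change -0.11, SE 0.072, edgeR adjusted p = 0.472). Tagln, the actin-binding protein transgelin, had 5.93 and 7.06 CPM in WT and 6.24 and 5.97 in KO (log2 fold change -0.088) and overlapped between genotypes. Its exons overlap those of Pcsk7 on the other strand. Myh11, the smooth muscle myosin heavy chain, had 12.5 and 14.3 CPM in WT and 11.9 and 11.8 in KO (log2 fold change -0.17, SE 0.074, edgeR adjusted p = 0.206).

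**Figure D3:**
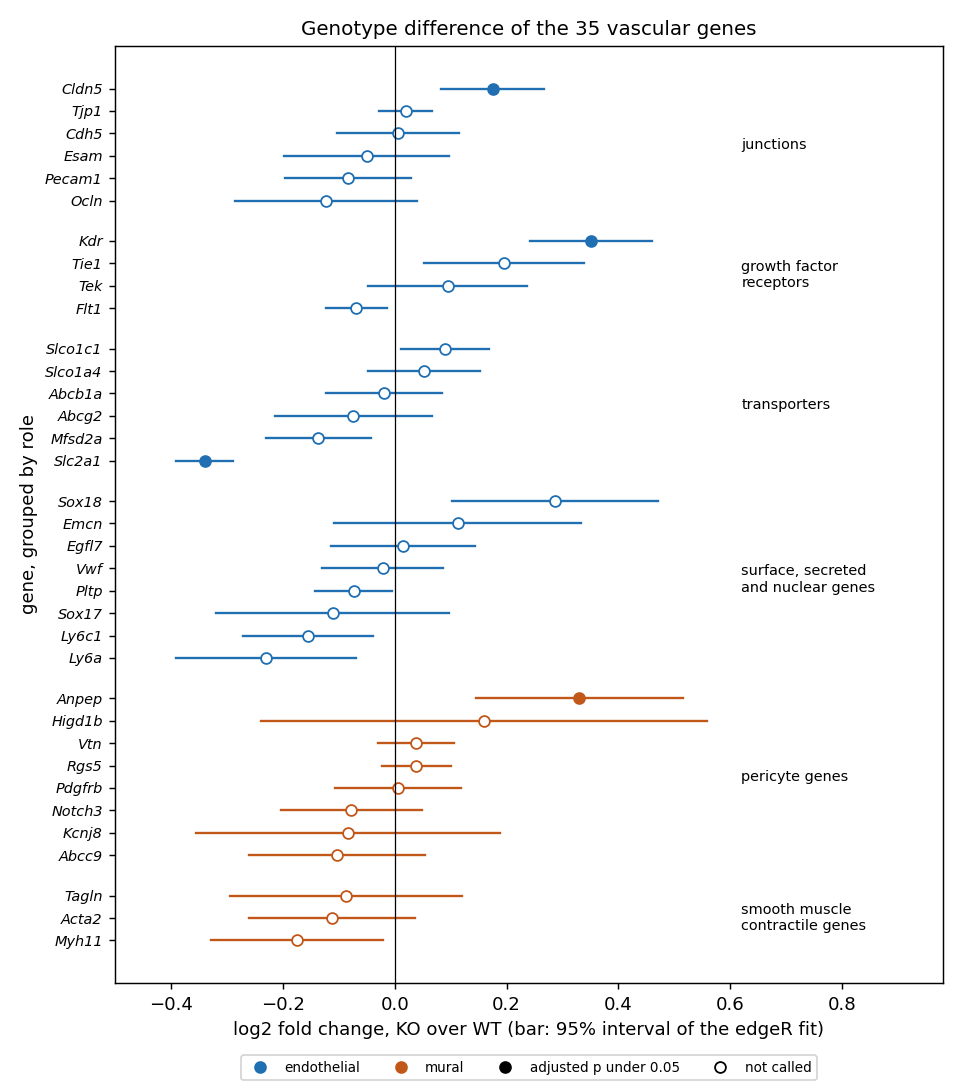
Log2 fold change (KO over WT) of each of the 35 genes with its 95% interval, grouped by role, with filled points for genes called at an adjusted p under 0.05. Kdr, Cldn5 and Anpep lie to the right of 0 and Slc2a1 to the left, from -0.34 to 0.35, and each role group has points on both sides of 0 except the 3 smooth muscle contractile genes.

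Endothelial and mural genes were then set side by side. Of 24 endothelial genes 2 rose and 1 fell (12.5% called), and of 11 mural genes 1 rose and 0 fell (9.09% called), against 6.53% of all genes tested. The median log2 fold change was -0.021 for endothelial and -0.078 for mural genes, against -0.00038 over all genes tested. Neither median was stable when a library was left out. The endothelial one was 0.019 without WT library 1, and the mural one was -0.0034 when that library was dropped, 0.0093 when WT library 2 was, and -0.023 without KO library 1. Among endothelial genes 11 had a log2 fold change above 0 and 13 below, and among mural genes 5 above and 6 below. The libraries of the genotypes did not overlap for 16 of 24 endothelial and 6 of 11 mural genes, where 45.7% of all genes tested did not overlap.

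The balance of the sums was also close to equal between libraries. The endothelial genes summed to 809 and 799.98 CPM in WT and 781 and 774 CPM in KO, and the mural genes to 266 and 264 in WT and 260.2 and 272 in KO. The ratio of endothelial to mural sums was 3.04 and 3.03 in WT and 3.003 and 2.84 in KO. Slc2a1 made up 16.5% and 16.7% of the endothelial sum in WT and 13.8% and 13.4% in KO. Without Slc2a1 the endothelial sum was 675 and 666 CPM in WT and 674 and 671 CPM in KO, and the genotypes overlapped. The ratio without it was 2.54 and 2.53 in WT and 2.59 and 2.46 in KO, which overlapped too. Rgs5 alone gave 39.6% to 41.7% of the mural sum.

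Other genes of vascular signalling were read from a list of 35 ligands, receptors and targets. Of these 3 rose, 3 fell and 29 were not called (17.1% called, against 6.53% of all genes tested), with a median log2 fold change of 0.035. DESeq2 called only 2 of the 35, Fzd4 and Nrp1, and 1011 of all genes where edgeR called 1411. Fzd4, the receptor for norrin that maintains the barrier, fell from 18.1 to 14.5 CPM (-0.33 on the log2 scale, SE 0.063, edgeR adjusted p = 0.00119). Nrp1, a co-receptor of VEGF-A that neurons also make, fell from 41.3 to 36.2 CPM (-0.19 on the log2 scale, SE 0.039, edgeR adjusted p = 0.00241). Aplnr, the apelin receptor of sprouting endothelium, rose from 1.11 ± 0.16 to 2.06 ± 0.081 CPM, or 0.90 as log2 fold change (SE 0.19, edgeR adjusted p = 0.00352). It had only 80 to 164 reads per library, and DESeq2 gave it no adjusted p, so that call rests on the other tools. Apcdd1, an inhibitor of Wnt signals, rose from 41.7 to 46.05 CPM (log2 fold change 0.14, edgeR adjusted p = 0.0163), a call lost by DESeq2 (adjusted p = 0.0506) and by edgeR without WT library 1 (adjusted p = 0.118) or KO library 1 (0.0906).

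Partners of the vascular receptors were named after their values were seen. Pdgfb, which encodes the ligand of Pdgfrb, rose from 27.1 ± 0.81 to 30.7 ± 2.22 CPM (log2 fold change 0.18, edgeR adjusted p = 0.029). The call was lost by DESeq2 (adjusted p = 0.0766) and by edgeR without WT library 2 (log2 fold change 0.15, adjusted p = 0.164) or KO library 1 (0.11, adjusted p = 0.404). Notch4, an endothelial Notch receptor, fell from 14.1 to 11.7 CPM (log2 fold change -0.27, edgeR adjusted p = 0.0196), a call lost by DESeq2 (adjusted p = 0.0564) and without WT library 2 (0.113) or KO library 1 (0.219). Vegfa, which encodes the ligand of Kdr and Flt1 and is made by astrocytes and neurons among others, had 75.1 and 79.4 CPM in WT and 84.3 and 81.3 in KO. Its log2 fold change of 0.10 was not called (edgeR adjusted p = 0.0516), and was called in 6 of 13 alternatives, with an adjusted p of 0.0078 when WT library 2 was left out and 0.504 when WT library 1 was.

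Further endothelial markers were mixed. Of 33 that passed the filter on low counts, of 34 listed, 1 rose and 3 fell. This was 12.1% called, against 6.53% of all genes tested, with a median log2 fold change of 0.0031. Bsg, the chaperone of lactate transporters that many cell types make, rose from 364 to 393 CPM (log2 fold change 0.11, edgeR adjusted p = 8.36e-05). Slc7a5, the carrier of large neutral amino acids, fell from 76.3 to 69.4 CPM (log2 fold change -0.14, edgeR adjusted p = 0.00344), and Cavin2, a coat protein of caveolae, fell from 11.2 to 8.96 CPM (-0.33, edgeR adjusted p = 0.00727). Cgnl1, a junction protein, fell from 38.4 to 34.9 CPM (-0.14, edgeR adjusted p = 0.0456), a call lost by DESeq2 (adjusted p = 0.126) and in edgeR without any 1 of the 4 libraries (0.056 to 0.231). Plvap, the diaphragm protein of leaky vessels such as those of choroid plexus and pituitary, was chosen after its values were seen. It had 9.52 and 9.27 CPM in WT and 8.14 and 7.72 in KO (log2 fold change -0.24, edgeR adjusted p = 0.084).

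Further mural markers gave no call in the reported edgeR fit, though some were called in alternative fits. Of 25 genes 0 were called by edgeR, DESeq2 or limma-trend, and the median log2 fold change was -0.042. DESeq2 gave no adjusted p for Cnn1, Mustn1 and Lmod1, so it did not judge these genes of few reads. In edgeR 6 of the 25 had an unadjusted p under 0.05, where 17.4% of all genes tested did. Cnn1, the smooth muscle protein calponin, had the smallest p. It had 0.645 and 0.634 CPM in WT and 0.391 and 0.169 in KO, so the KO libraries were both lower (log2 fold change -1.16, SE 0.40, edgeR adjusted p = 0.0903). It was called with no filter on low counts (edgeR adjusted p = 0.0247) and with a stricter filter (0.0416). The log2 fold change was -1.91 without KO library 1 (edgeR adjusted p = 0.0156) and -0.71 when KO library 2 was dropped (0.476). Mustn1, Lmod1 and Mcam had log2 fold changes of -0.54, -0.49 and 0.11, and Lmod1 ranged from -0.87 without KO library 1, where it was called (edgeR adjusted p = 0.0261), to -0.21 with KO library 2 dropped (0.769).

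Genes of other tissues differed by more in these libraries, where 6.53% of all genes tested were called. The 8 markers of cerebellar granule and Purkinje cells summed to 219 and 227 CPM in WT and 109 and 109 CPM in KO, and all 8 fell. The 7 anterior pituitary markers summed to 61.7 and 61.9 CPM in WT and 29.4 and 29.2 in KO, and 3 of the 4 that passed the filter fell. Of 7 erythroid markers 4 rose and 0 fell, with a median log2 fold change of 0.26. All 4 that rose are globin genes with near-identical copies. The 7 erythroid markers summed to 188 and 202 CPM in WT and 237 and 229 CPM in KO. No marker in these lists was at 0 reads in all 4 libraries. The pituitary markers that failed the filter, Tshb, Lhb and Pou1f1, had at most 22 reads in any library, and Lhb had 0, 0, 0 and 1. The part of the differences in other tissues in the vascular results was not tested.

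**Figure D4:**
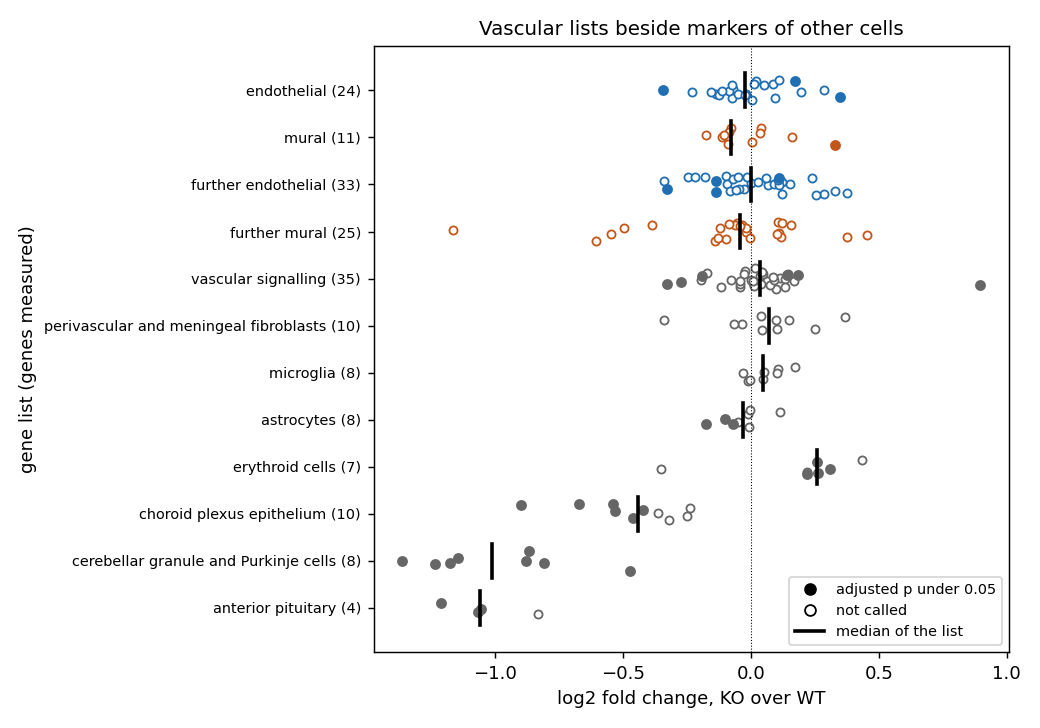
Log2 fold change (KO over WT) of each measured gene by list, with filled points for genes called at an adjusted p under 0.05 and a black bar at the median of the list. The vascular lists have medians between -0.078 and 0.035, while those of choroid plexus, cerebellar and pituitary markers are -0.44, -1.01 and -1.06.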

How the data were processed

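The deposited values are raw read counts per Ensembl mouse gene in 1 table with a column per library, which the authors did not normalize. FastQC, STAR 2.6.1c, featureCounts, DESeq2 and the GRCm39 build are named without roles, per the submitters' processing notes. Of counts from 1 to 20, 72.8% to 74.3% were even, so both mates of a pair appear to have been counted. Columns were matched to samples by title (both KO column names carry a further suffix that the titles and the WT columns lack), and symbols were found for 52081 of 55414 identifiers. Exon lengths come from GENCODE, on another build than the counts.

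The count test was edgeR 4.0.16 under R 4.3.3 (filterByExpr at a minimum count of 10, TMM, glmQLFit and glmQLFTest, genotype as the only term, all genes). The SE is the log2 fold change over the square root of F. CPM use TMM-scaled totals. The test was also run on simulated data (21582 genes, 50 changed at each of 4 fold sizes). It called 30% of 1.1-fold, 62% of 1.2-fold and 96% of 1.5-fold changes, and 21 of its 165 calls were unchanged genes. The changed genes were drawn only from genes with many reads, and the variance was set at 2.5 times that of a Poisson count. These shares therefore do not apply to genes with few reads, such as Higd1b. Alternatives used DESeq2 1.42.0 and limma 3.58.1, among others. With a library left out, the spread is taken from the genotype that still has 2. The genes and lists were chosen with earlier results of these data known. All 35 genes are eligible by name, as are the 4 genes of smallest p in each other list, of which only some are described.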

Additional observations from a re-analysis of the deposited data

How the results depend on the processing

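In 13 alternative fits of the 35 genes, 454 gene values were obtained (DESeq2 gave no adjusted p for Higd1b). Of these 439 kept their side of the threshold relative to the reported value, 6 lost a call and 9 gained 1, and 0 called genes changed direction. The 6 losses were of Cldn5 and Anpep, and the 9 gains of Sox18, Mfsd2a, Ly6a and Ly6c1. With an adjusted p under 0.1, 6 endothelial genes were called (3 higher, 3 lower). DESeq2 called 0 mural genes by adjusted p under 0.05, where 2 had an unadjusted p under 0.05 in edgeR. With 1 library left out, 2 to 6 endothelial and 0 to 1 mural genes were called, and the median log2 fold change ranged from -0.028 to 0.019 for endothelial and from -0.056 to 0.0093 for mural genes. The replicate numbers are shared between genotypes, but the labels do not say that they pair libraries, and deviations of same-numbered libraries had a correlation of 0.034 across 13254 genes. With the number as a replicate block, 4 endothelial genes (Sox18 added), 1 mural gene and 1590 of all genes were called, against 3, 1 and 1411. Genes with few reads, such as Higd1b, Kcnj8 and Emcn, had the widest intervals.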
